A study of Mus musculus with 6 samples.

Results

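The 9 genes described here make inositol, turn it into phosphoinositide lipids or act on those lipids. They were taken by gene symbol: *Isyna1*, *Impa1*, *Impa2*, *Cdipt*, *Plcb3*, *Plcg1*, *Pi4ka*, *Pip5k1c* and *Inppl1*. They are 9 of 12134 genes in the intron tables, and they hold 143 of the 85015 introns listed in any library, 132 of the 68322 listed in all 4 total RNA libraries and 127 of the 63309 that were tested. In the long reads, 42 of the 54718 transcripts with reads belong to them. The genes were selected on earlier results for splicing efficiency, spliced reads and long reads in the same control against knockdown comparison, and which value weighed for which gene is not recorded. All values of that comparison are therefore given for the 9 genes as descriptions without a test, and their counts of calls carry no support of their own.

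The study asked how the loss of SON, a protein of nuclear speckles that takes part in pre-mRNA splicing, changes RNA in mouse embryonic stem cells. E14 cells (129/Ola background), kept in medium with serum and leukaemia inhibitory factor, were transfected with a control siRNA or an siRNA against *Son*, and RNA was taken 24 hours later from all groups. There are 4 samples of total RNA depleted of ribosomal RNA, 2 control and 2 knockdown, and 2 samples of Nanopore cDNA, 1 of each. An siRNA lowers a transcript in a transfected population and is neither a deletion nor a clone, the control groups went through the same transfection, and the labels of both long-read samples, the control included, name knockdown replicate 1 of the total RNA as starting material. Which RNA the long-read control came from is therefore unclear, and its values are those of the library labelled control.

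Spliced *Son* reads were 273 and 306 CPM (counts scaled to the library's total of split reads) in the control libraries against 92.1 and 100.5 in the knockdown libraries, a log2 fold change of −1.61 (standard error 0.0869), and *Son* had 217 and 37 long reads. Split reads at 5′ junctions numbered 16012286 and 10640247 in the control libraries against 14978479 and 10556187 in the knockdown libraries, and the long-read libraries held 3080426 and 1874851 reads. Of 10 embryonic stem cell markers, 9 were listed in total RNA, with a summed level of 5201 to 5307 CPM over the 4 libraries. *Sox2* was not listed there, so total RNA gives no value for it, and it had 36.4 and 62.9 CPM of long reads. Of 6 fibroblast markers 1 was listed, at 1.14 to 2.14 CPM, and of 5 primitive endoderm markers 1, at 1.80 to 2.81 CPM. Of 5 trophoblast markers 2 were listed, with a sum of 27.7 to 38.2 CPM. *Col1a1*, *Col1a2*, *Gata6* and *Cdx2* were not listed in total RNA and had 0 long reads. A marker that is not listed is not shown to be absent: *Elf5* was not listed either and had 9.74 and 12.8 CPM of long reads. The ranges of the 2 groups overlapped in the sum of each of these lists, but not in each gene. *Pou5f1* (1916 and 1943 CPM in controls against 1862 and 1801) and *Nanog* (246 and 239 against 233 and 205) were lower in the knockdown. *Tfcp2l1* was higher (788 and 774 against 892 and 966), and the other listed markers overlapped. In such bulk samples fewer cells of a type and less RNA per cell cannot be told apart.

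Inositol is a sugar alcohol that cells take up, recover from inositol phosphates or make from glucose 6-phosphate. ISYNA1, inositol-3-phosphate synthase, carries out the committed step of that synthesis, and the inositol monophosphatases IMPA1 and IMPA2 release free inositol. CDIPT joins inositol to CDP-diacylglycerol to give phosphatidylinositol, and the kinases PI4KA and PIP5K1C add phosphates to its ring. The phospholipases C PLCB3 and PLCG1 cut the resulting bisphosphate into inositol trisphosphate, which releases calcium, and diacylglycerol, while INPPL1 (SHIP2) removes the 5-phosphate from the trisphosphate lipid made by phosphoinositide 3-kinases.

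At each intron, a split read joins the exons across it and an unsplit read runs from exon into intron. Splicing efficiency is the share of split reads among both, over both junctions, so 1 means that every read was spliced. Spliced reads in CPM are counted at 5′ junctions only. Other split and unsplit counts per intron or gene are sums over both junctions, so a split read is counted at each of them. The exon junctions on which the results turn are printed here from GENCODE M21 transcripts, 30 bases from each exon on the gene's own strand, with the last 3 bases of the exon before the intron and the first base of the exon after it in capitals. The first 4 are all the *Isyna1* introns that the tables list, on the plus strand of chromosome 8 (GRCm39), introns 10, 7, 6 and 5 of the 10 in transcript ENSMUST00000019283 (Isyna1-201). All printed bases are coding.
Isyna1 intron 10, chr8:71049562-71049646: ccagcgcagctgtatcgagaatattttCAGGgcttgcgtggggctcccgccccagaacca
Isyna1 intron 7, chr8:71048816-71048897: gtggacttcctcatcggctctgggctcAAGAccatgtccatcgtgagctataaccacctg
Isyna1 intron 6, chr8:71048505-71048599: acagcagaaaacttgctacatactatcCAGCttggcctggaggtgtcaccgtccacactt
Isyna1 intron 5, chr8:71048205-71048354: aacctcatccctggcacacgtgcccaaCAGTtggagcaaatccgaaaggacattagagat
In these 4 the exon before the intron ends in AG. The other 5 junctions belong to introns of *Plcb3* (chromosome 19, minus strand), *Plcg1* (chromosome 2, plus strand) and *Inppl1* (chromosome 7, minus strand) with large falls in splicing efficiency, and are shown for comparison.
Plcb3 intron 26, chr19:6932469-6932574: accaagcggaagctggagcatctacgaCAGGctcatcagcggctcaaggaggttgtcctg
Plcb3 intron 6, chr19:6942953-6943053: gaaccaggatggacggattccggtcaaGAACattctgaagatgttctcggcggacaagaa
Plcg1 intron 8, chr2:160593391-160593552: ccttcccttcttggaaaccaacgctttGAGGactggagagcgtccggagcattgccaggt
Plcg1 intron 7, chr2:160593147-160593355: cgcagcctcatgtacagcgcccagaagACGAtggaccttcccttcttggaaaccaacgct
Inppl1 intron 6, chr7:101481522-101481681: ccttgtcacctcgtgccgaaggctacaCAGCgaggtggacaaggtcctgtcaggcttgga
These junctions have no common exon end: CAG stands before *Plcb3* intron 26 and *Inppl1* intron 6, GAA before *Plcb3* intron 6, and GAG and ACG before *Plcg1* introns 8 and 7. *Plcg1* introns 7 and 8 flank an exon of 35 nt, whose bases appear in both lines.

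*Isyna1* (ENSMUSG00000019139) had far more spliced RNA per junction than the other 7 genes measured in total RNA, and lost more of it than it kept after *Son* knockdown. Its 4 listed introns held 279 and 276 CPM of spliced reads in the control libraries against 124 and 128 CPM in the knockdown libraries, from 4467, 2942, 1857 and 1354 split reads at 5′ junctions. The groups did not overlap, and the replicates of a group lay within 5 CPM of each other. The log2 fold change was −1.16 (standard error 0.0793), which left 45.4% of the control mean.

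Splicing efficiency over *Isyna1* was 0.978 in both control libraries against 0.912 and 0.918 in the knockdown libraries. Both sides of that ratio moved: spliced reads fell as given above, and unsplit reads went from 12.4 and 12.2 to 24.2 and 23.1 CPM. Here and below, unsplit CPM are scaled to the same library totals as the spliced reads but are counted at both junctions. In raw counts there were 198 and 130 unsplit reads in the controls against 363 and 244 in the knockdown. The log2 odds ratio of an unsplit against a split read, knockdown against control, was 2.08 (standard error 0.245), and a value above 0 means less complete splicing. The median of this ratio over all genes was 0.09.

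All 4 listed *Isyna1* introns showed the fall, with no overlap between the groups in any of them. Both knockdown libraries were below both controls in 24.3% of all tested introns, and in 40.3% of those of up to 300 nt. Intron 10, of 85 nt and the last of the transcript, went from 0.978 and 0.978 to 0.896 and 0.874, a log2 odds ratio of 2.51 (standard error 0.361). Intron 7, of 82 nt, went from 0.980 and 0.987 to 0.932 and 0.917 (log2 odds ratio 2.25, standard error 0.378). These are the shortest of the 4, and their last exon bases are CAG and AAG in the sequences above. Intron 6, of 95 nt, went from 0.978 and 0.977 to 0.882 and 0.931 (log2 odds ratio 2.15, standard error 0.375), and intron 5, of 150 nt, from 0.978 and 0.973 to 0.932 and 0.937 (log2 odds ratio 1.49, standard error 0.344). Summed over both junctions, with a split read counted at each, intron 10 had 80 unsplit and 3538 split counts over both controls. Over both knockdown libraries these sums were 188 and 1494. Introns 10 and 7 remained past the threshold in each of the 11 alternatives run, intron 6 was lost with the 3′ junction alone, and intron 5 with the 3′ junction alone, with DESeq2 and without either control library. The other 6 introns of Isyna1-201 are not in the tables and were not analysed here.

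**Figure D1:**
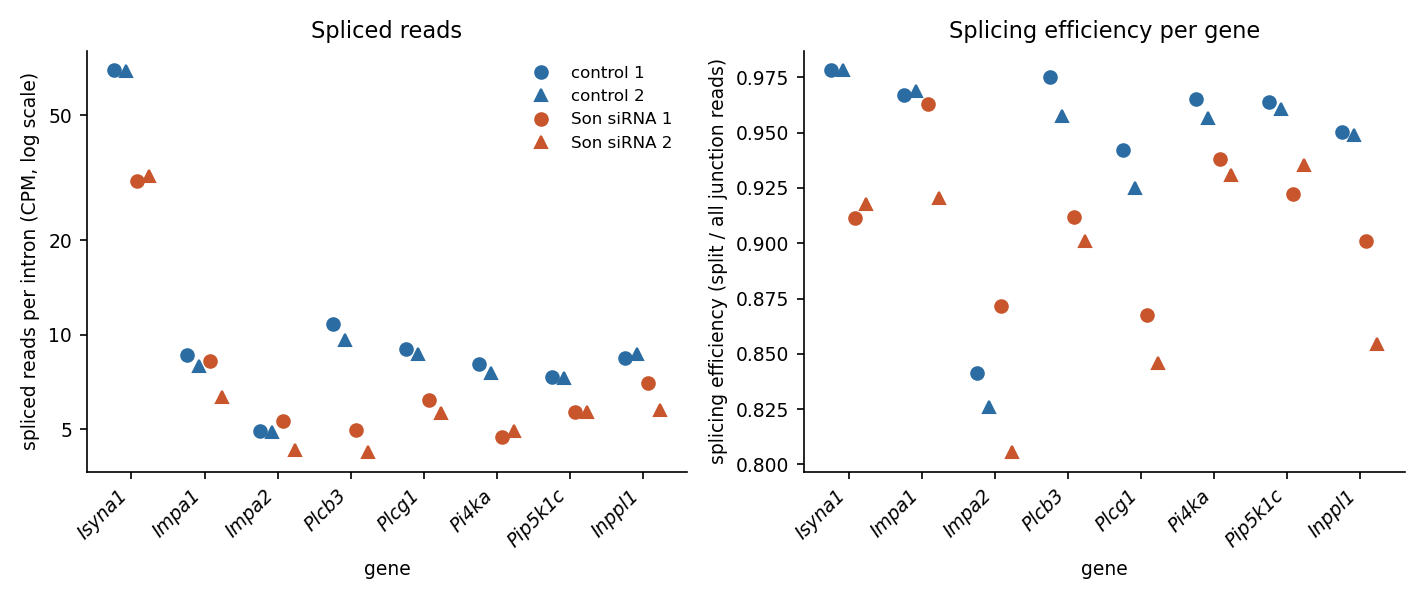
Left, spliced reads per listed intron in CPM on a log axis; right, splicing efficiency per gene, for the 8 genes with introns listed in all 4 libraries. Each point is 1 library, blue for control and orange for *Son* siRNA, circles for replicate 1 and triangles for replicate 2; *Isyna1* stands at about 70 CPM per intron in controls against 31 to 32 in the knockdown, and *Impa2* is the gene whose groups overlap in both panels.

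Per listed intron, which puts genes with different numbers of introns on one scale, *Isyna1* had 69.7 and 69.1 CPM in the control libraries. *Plcb3* followed with 10.8 and 9.61 CPM, *Plcg1* with 8.99 and 8.70, *Inppl1* with 8.46 and 8.70, *Impa1* with 8.62 and 7.99, *Pi4ka* with 8.10 and 7.56, *Pip5k1c* with 7.35 and 7.31 and *Impa2* with 4.94 and 4.92. *Inppl1* and *Impa1* overlapped each other, as did *Impa1* and *Pi4ka*, so their order is not settled by 2 libraries. In the knockdown libraries *Isyna1* was still highest, with 31.0 and 32.1 CPM. *Plcb3*, next to the top in controls, then had 4.99 and 4.22 CPM, a range that overlapped *Impa2* (5.33 and 4.29) and *Pi4ka* (4.73 and 4.94).

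Neither inositol monophosphatase gene was called in splicing efficiency or in spliced reads. *Impa1* (ENSMUSG00000027531) had 17.2 and 16.0 CPM of spliced reads in controls against 16.5 and 12.7 in the knockdown, and a splicing efficiency of 0.967 and 0.969 against 0.963 and 0.920. The spliced reads of the groups overlapped, and the gap in efficiency rested on knockdown replicate 2. These sums use 2 introns, because the other 3 tested introns of *Impa1* are also listed under *Gm38303*, an overlapping gene, and were left out of them. The log2 fold change was −0.20 (standard error 0.177). The log2 odds ratio was 0.78 (standard error 0.486), on 19 and 11 unsplit reads in controls against 19 and 23 in the knockdown. On so few reads the lack of a call does not show a lack of change. Of 5 tested introns 0 were called, and all 5 had a log2 odds ratio above 0, beside 58.0% of all tested introns. Its intron with the largest change that had 50 reads or more in each library was intron 3 of 2133 nt (chr3:10391272-10393404), with 0.949 and 1 in controls against 0.921 and 0.914 in the knockdown.

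*Impa2* (ENSMUSG00000024525, chromosome 18) had 29.7 and 29.5 CPM in controls against 32.0 and 25.8 in the knockdown. Its splicing efficiency was 0.841 and 0.826 in controls, the lowest of the 8 genes, and 0.872 and 0.805 in the knockdown. In both measures the 2 knockdown libraries lay on either side of the controls. The log2 fold change was −0.05 and the log2 odds ratio −0.09, and each took the other sign without 1 knockdown library. Intron 2, of 4361 nt, had the largest change among those with enough reads, from 0.741 and 0.838 to 0.785 and 0.695, with overlapping groups. All 5 tested *Impa1* introns and all 6 of *Impa2* are longer than 300 nt.

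*Cdipt* (ENSMUSG00000030682), the synthase that makes phosphatidylinositol, could not be followed in total RNA. A single intron of it is listed, of 261 nt (chr7:126578169-126578429), with 0.919 and 0.899 in controls against 0.946 in knockdown replicate 1. Knockdown replicate 2 does not list this intron, for a reason that is not given, so it was not tested. In the 3 libraries the split counts, summed over both junctions, were 238, 160 and 229 and the unsplit counts 21, 18 and 13.

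Of the phospholipases C, *Plcb3* (ENSMUSG00000024960), which G protein-coupled receptors activate, had the larger change. Spliced reads were 216 and 192 CPM in controls against 99.9 and 84.5 in the knockdown, a log2 fold change of −1.17 (standard error 0.0966) that left 45.2% of the control mean. That share is close to the 45.4% of *Isyna1*. Splicing efficiency went from 0.975 and 0.958 to 0.912 and 0.901 (log2 odds ratio 1.62, standard error 0.250). Unlike in *Isyna1*, unsplit reads rose little beyond the controls, from 10.9 and 17.1 to 19.4 and 18.6 CPM, a difference between the 2 genes that was not tested.

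Within *Plcb3* the fall was uneven. Of 19 tested introns, 5 were called and 13 were below both controls in both knockdown libraries. For this gene and those below, the shares over all tested introns were 1.71% called lower and 24.3% below both controls. Among those of up to 300 nt they were 6.40% and 40.3%. Intron 26, of 106 nt, had the largest fall of all called introns in the 9 genes, from 0.861 and 0.839 to 0.611 and 0.453, and intron 6, of 101 nt, went from 0.991 and 0.905 to 0.704 and 0.690. Summed over both junctions, intron 26 had fewer split than unsplit counts in knockdown replicate 2. Over both knockdown libraries these sums were 82 split and 66 unsplit, against 290 and 50 in controls. Intron 16, of 220 nt, went from 0.942 and 0.958 to 0.713 and 0.842, and intron 19, of 610 nt, from 0.984 and 0.971 to 0.912 and 0.878. The fifth called intron, intron 20 of 83 nt, is adjacent to intron 19 and went from 0.992 and 0.969 to 0.889 and 0.913. Introns 14 and 15, between introns 6 and 16, and intron 4, before them, were not called and had 0.942 or more in all 4 libraries. These uncalled introns were picked from the uncalled ones of the gene after their values were seen.

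*Plcg1* (ENSMUSG00000016933), which receptor tyrosine kinases activate, fell less in spliced reads, from 162 and 157 CPM to 112 and 102 (log2 fold change −0.60, standard error 0.0883). Splicing efficiency went from 0.942 and 0.925 to 0.868 and 0.846 (log2 odds ratio 1.24, standard error 0.240), and unsplit reads from 19.9 and 25.5 to 33.9 and 37.1 CPM. The groups did not overlap in any of the 3 measures. All 18 tested introns had a log2 odds ratio above 0, beside 58.0% of all tested introns and 71.5% of those of up to 300 nt. Of the 18, 14 were below both controls. Of the 4 called ones, introns 7 and 8 lie on either side of the 35 nt exon printed above and fell from 0.951 and 0.915 to 0.702 and 0.758 and from 0.923 and 0.874 to 0.745 and 0.594. Introns 30 (93 nt) and 11 (88 nt) fell less, from 0.932 and 0.968 to 0.810 and 0.856 and from 0.986 and 0.932 to 0.901 and 0.878. The call on the gene's splicing efficiency was lost without control replicate 1, with a log2 odds ratio of 1.04.

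**Figure D2:**
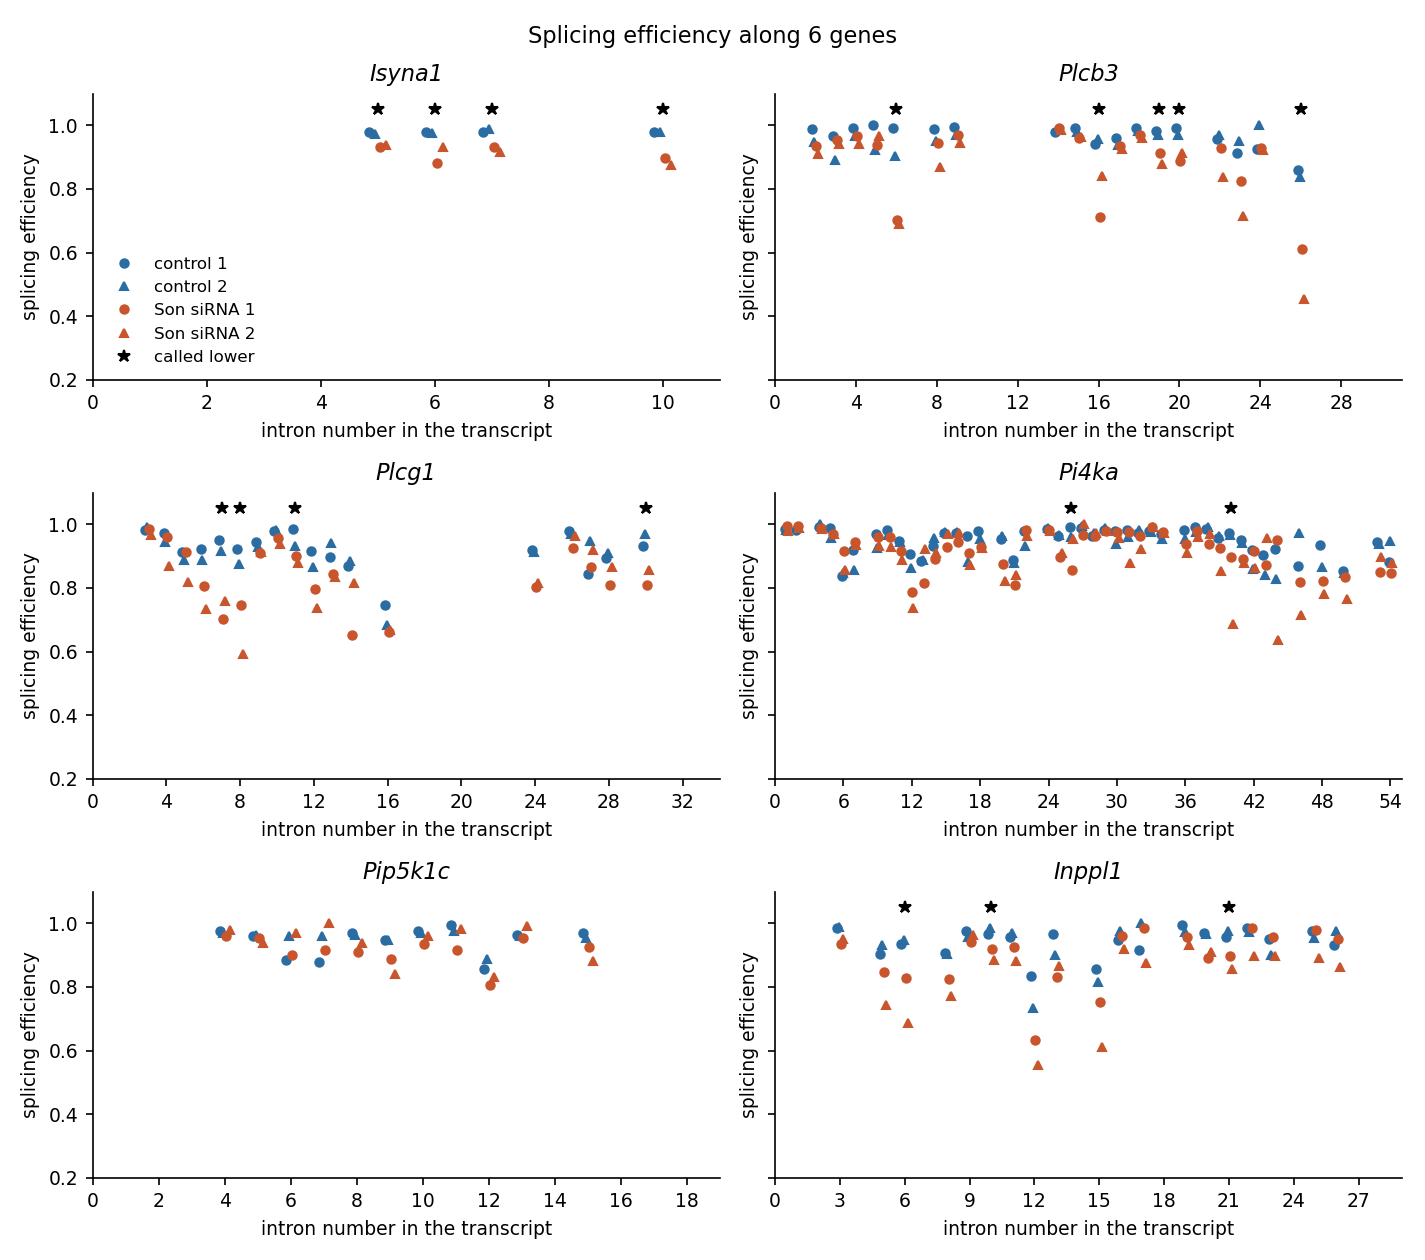
Splicing efficiency of each tested intron against its number in the gene's most used protein-coding transcript, for 6 genes. Blue points are control and orange points knockdown libraries, and a star marks an intron called lower; the lowest point of a starred intron is that of *Plcb3* intron 26 in knockdown replicate 2, at 0.453, while most *Pi4ka* introns lie close together in all 4 libraries.

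The lipid kinases had smaller falls in splicing efficiency than the phospholipases C, a difference that was not tested. *Pi4ka* (ENSMUSG00000041720), whose product makes phosphatidylinositol 4-phosphate at the plasma membrane, has the most introns of the 9 genes, with 44 tested. Its spliced reads fell from 364 and 340 CPM to 213 and 222 (log2 fold change −0.72, standard error 0.0763), which left 61.7%. Splicing efficiency went from 0.965 and 0.957 to 0.938 and 0.931 (log2 odds ratio 0.79, standard error 0.229), while unsplit reads, at 26.2 and 30.9 against 28.0 and 33.0 CPM, overlapped between the groups. Only 2 of the 44 introns were called and 25 were below both controls. Intron 40, of 1361 nt (chr16:17111875-17113235, minus strand), went from 0.973 and 0.965 to 0.897 and 0.685, and is the longest called intron of the set. Intron 26, of 248 nt (chr16:17134910-17135157), went from 0.990 and 0.960 to 0.856 and 0.952, so that knockdown replicate 2 lay within 0.01 of control replicate 2. The call on the gene's splicing efficiency was lost with the 5′ junction alone and without control replicate 1, control replicate 2 or knockdown replicate 2, with log2 odds ratios of 0.62, 0.62, 0.95 and 0.71, and the call on its spliced reads was lost with the best covered intron alone (−0.54).

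*Pip5k1c* (ENSMUSG00000034902), which makes the phosphatidylinositol 4,5-bisphosphate that phospholipases C cut, had 95.55 and 95.02 CPM in controls against 73.8 and 73.6 in the knockdown. The libraries of a group were nearly equal, and the log2 fold change was −0.39 (standard error 0.0952). Splicing efficiency was 0.964 and 0.961 against 0.922 and 0.935 (log2 odds ratio 0.97, standard error 0.277). Of 12 tested introns 0 were called and 7 were below both controls; intron 9, of 247 nt (chr10:81147561-81147807), had the largest change with enough reads, from 0.947 and 0.947 to 0.887 and 0.840. The call on splicing efficiency was lost without control replicate 1, control replicate 2 or knockdown replicate 1 and with the 5′ junction alone (log2 odds ratios 0.91, 1.03, 0.82 and 0.91). That on spliced reads was lost without either control library (−0.39 and −0.40) and with the best covered intron alone (−0.29).

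The phosphatase gene *Inppl1* (ENSMUSG00000032737) had lower splicing efficiency and fewer spliced reads in both knockdown libraries. Spliced reads were 178 and 183 CPM in controls against 147 and 121 in the knockdown (log2 fold change −0.44, standard error 0.0934). Splicing efficiency went from 0.950 and 0.949 to 0.901 and 0.854 (log2 odds ratio 1.36, standard error 0.240), with knockdown replicate 2 lower in both measures. Unsplit reads went from 18.3 and 19.3 to 31.9 and 40.5 CPM. Of 19 tested introns 3 were called, intron 6 (160 nt) with a fall from 0.935 and 0.947 to 0.827 and 0.687, intron 21 (100 nt) from 0.955 and 0.975 to 0.897 and 0.856, and intron 10 (85 nt) from 0.967 and 0.986 to 0.918 and 0.885. The call on spliced reads was lost without control replicate 2 (−0.43) and with the best covered intron alone (−0.58).

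Over the 9 genes, 18 of 127 introns (14.2%) were called lower in splicing efficiency and 0 higher, beside 1.71% called lower among all tested introns. Both knockdown libraries were below both controls in 76 of the 127 (59.8%), beside 24.3%. The genes were chosen with this comparison known, so nothing is read from the excess. By gene, 6 of the 8 that could be tested were called lower in splicing efficiency, beside 6.98% of all genes, and 6 with fewer spliced reads, beside 6.76%. They are the same 6 genes, all but *Impa1* and *Impa2*. The median log2 odds ratio over the 127 introns was 1.17, beside 0.12 over all introns, and 1.04 beside −0.01 when unsplit reads were scaled on their own.

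How many introns were called depended on the setting. With the 5′ junction alone 4 were called, all in *Isyna1*. With the 3′ junction alone there were 3, of which 2 were in *Isyna1* and 1 in *Plcb3*. DESeq2 called 4, of which 3 were in *Isyna1* and 1 in *Plcb3*. Without control replicate 1 there were 4, of which 3 were in *Isyna1* and 1 in *Inppl1*, and without control replicate 2 there were 9, of which 3 were in *Isyna1*. Without control replicate 1, 3 of the 9 genes were called in splicing efficiency. *Isyna1* and *Plcb3* kept both of their calls per gene in every alternative run. *Isyna1* introns also had the most reads, with a median of 1329 per library and intron, against 177 over the 127.

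Length differed between called and other introns of the set. The genes were not chosen by length, but splicing efficiency entered the choice and its calls go with length over all introns. Length is therefore not independent of the choice. The 18 called introns had a median of 103.5 nt and the 109 others one of 507 nt, and 16 of the 18 were at most 300 nt long. Among the introns of up to 300 nt 16 of 60 (26.7%) were called, and among the longer ones 2 of 67 (2.99%). The same order held over all tested introns, with 6.40% and 0.477%. The 9 genes had more short introns than the rest, 60 of 127 (47.2%) against 20.9% of all. Short introns were unevenly spread over them: all 4 of *Isyna1*, 15 of 19 in *Inppl1*, 14 of 18 in *Plcg1*, 13 of 19 in *Plcb3*, 11 of 44 in *Pi4ka*, 3 of 12 in *Pip5k1c* and none of the 11 in *Impa1* and *Impa2*. Introns of 1 gene share its reads, so these counts are descriptions and the link to length was not tested. The called introns also had more reads, with a median of 288 per library and intron against 173.5 in the others of the set.

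**Figure D3:**
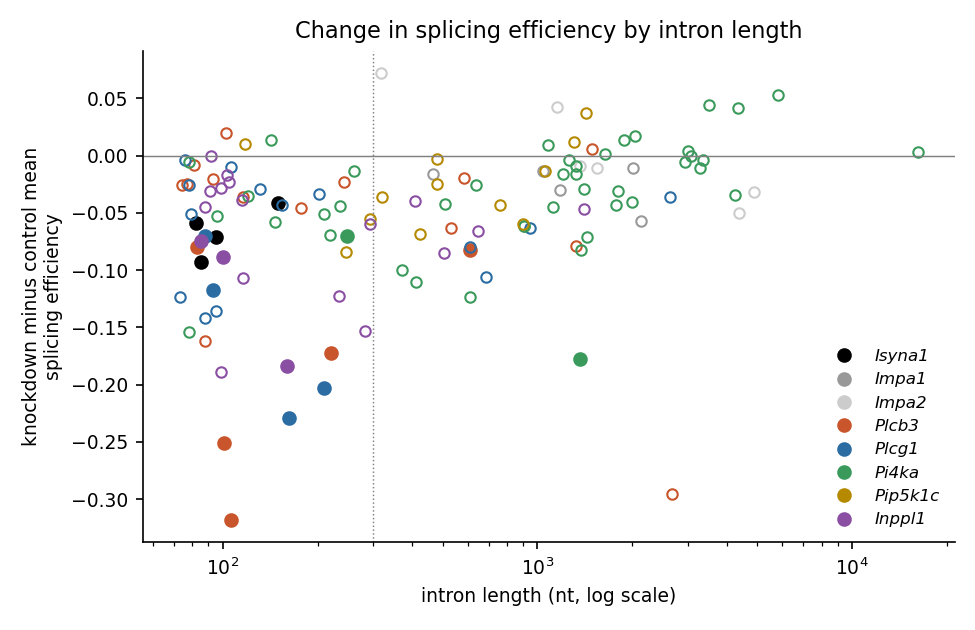
Change in splicing efficiency (mean of the 2 knockdown libraries minus mean of the 2 controls) against intron length in nt on a log axis, for the 127 tested introns. Colours mark genes, filled points the 18 called introns, the dotted line 300 nt; 16 filled points lie left of that line, and the low open point at 2675 nt is a *Plcb3* intron with few reads.

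GC content and the last exon bases were also compared. The GC content of the 100 exon bases on each side had a median of 55.1% in the 18 called introns, 53.0% in the others of the set and 50.5% over all introns, where introns called lower had 56.5%. *Isyna1* had a median of 57.0%, *Pip5k1c*, which had no called intron, 59.8%, and *Impa1* 45.2%. The exon before the intron ended in AG in 12 of the 18 called introns (66.7%), in 62 of the 109 others (56.9%) and in 57.6% of all tested introns. Control splicing efficiency had a median of 0.958 in the 127 introns and 0.933 over all. The uncalled intron of *Plcb3* at 2675 nt (chr19:6944078-6946752), named after its value was seen, had 0.679 and 0.531 in controls against 0.304 and 0.314 in the knockdown, on 62 split reads in controls against 32 in the knockdown.

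Long reads were counted per transcript, and how much of a transcript each read covers was not examined. They come from 1 library per group, so they have no replicate check and their intervals cover counting error only. *Isyna1* had 358 reads (116 CPM) in the control library and 73 (38.9 CPM) in the knockdown library, a log2 ratio of −1.57 (95% interval −1.93 to −1.21) with a pseudocount of 0.5 reads. Of all genes with at least 20 long reads, 4.16% were at least 2-fold lower, and of the 8 members with that many reads *Isyna1* alone passed that fold. *Plcb3* had 50 and 21 reads (log2 ratio −0.52, interval −1.24 to 0.21) and *Pi4ka* 54 and 21 (−0.63, −1.35 to 0.09). Both point estimates are negative, as the total RNA folds are, but the intervals include 0. With protein-coding transcripts only, the log2 ratios were −1.66 for *Isyna1*, −1.08 for *Pi4ka*, which then also passed the 2-fold mark, and −0.84 for *Plcb3*.

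For 4 further genes the interval of the long-read ratio also included 0, which leaves falls and rises of the size of its bounds possible. *Impa1* had 127 and 70 reads (log2 ratio −0.14, interval −0.56 to 0.28) and *Impa2* 127 and 64 (−0.27, −0.70 to 0.17). *Pip5k1c* had 34 and 27 reads (0.39, −0.33 to 1.11) and *Inppl1* 30 and 23 (0.34, −0.44 to 1.12), while *Plcg1* had 10 and 7, too few to place. For *Pip5k1c* and *Inppl1* the sign is opposite to that of their spliced reads in total RNA. *Cdipt*, which total RNA did not resolve, had 52 and 47 reads (0.57, 0.01 to 1.14), of which 44 and 41 lay on models annotated as targets of nonsense-mediated decay, mainly Cdipt-207 with 37 and 29. The *Cdipt* protein-coding models had 8 and 6 reads.

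**Figure D4:**
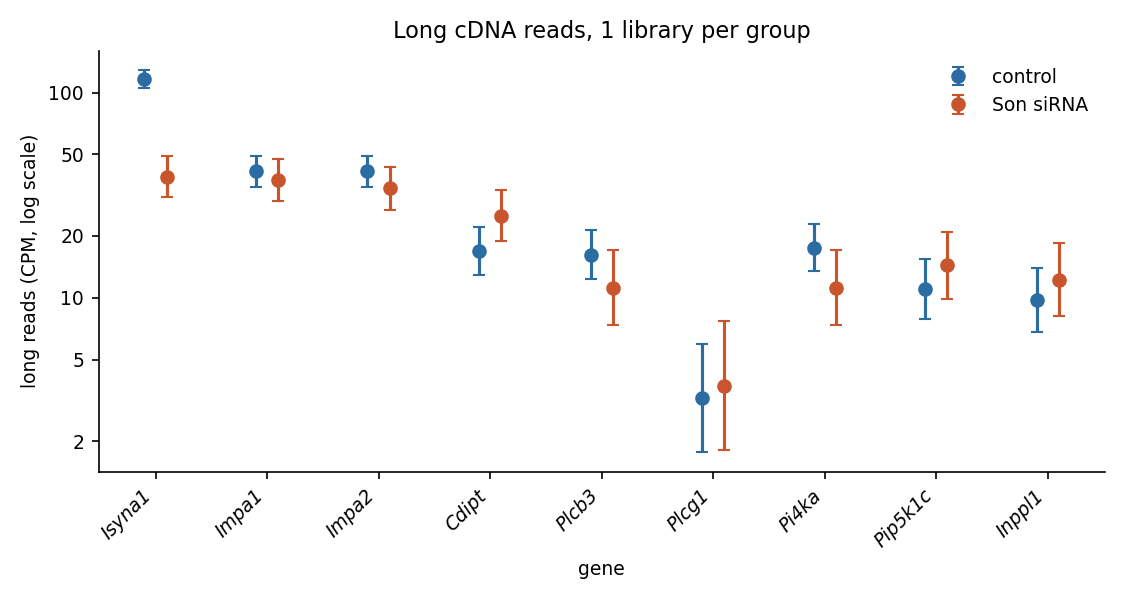
Long cDNA reads per gene in CPM on a log axis, 1 control library (blue) and 1 knockdown library (orange), with 95% intervals for counting error. *Isyna1* went from 116 to 38.9 CPM with intervals far apart, and the intervals of the other 8 genes overlap.

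Among *Isyna1* transcripts, the coding model Isyna1-201 fell most in long reads. It had 249 reads in the control and 36 in the knockdown library, 69.6% (95% Wilson interval 64.6 to 74.1) and 49.3% (38.2 to 60.5) of the gene's reads. Isyna1-204, a coding model that lacks intron 1 of Isyna1-201 and shares its other 9 introns, had 75 and 26 reads, 20.9% (17.0 to 25.5) and 35.6% (25.6 to 47.1). For each of these 2 models the intervals of the 2 libraries do not overlap, and both models had fewer reads in the knockdown library. The 2 models differ in introns only by intron 1, so a read that stops short of it may not tell them apart. How many reads reach it, and whether Isyna1-204 keeps it within an exon, was not examined. Isyna1-206, annotated as a retained-intron model, keeps intron 4 of 89 nt, which is not among the listed introns, and had 20 and 7 reads. Retained-intron models together took 6.15% (4.09 to 9.13) and 11.0% (5.66 to 20.2) of *Isyna1* reads, with overlapping intervals. No annotated *Isyna1* model with reads keeps intron 5, 6, 7 or 10, so the introns measured in total RNA cannot be followed in this transcript table.

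For the other genes the retained-intron reads were few. In *Pi4ka* they were 11 of 54 in the control (20.4%, 11.8 to 32.9) and 9 of 21 in the knockdown library (42.9%, 24.5 to 63.5), of which Pi4ka-211 had 4 and 7, while the coding Pi4ka-209 went from 30 to 6. In *Plcb3* they were 6 of 50 (12%, 5.62 to 23.8) and 6 of 21 (28.6%, 13.8 to 50.0), mainly Plcb3-209, which keeps intron 25 of 356 nt. The intervals overlap in both genes. Over all 9 genes, retained-intron models held 43 of 842 reads (5.11%, 3.81 to 6.81) and 26 of 353 (7.37%, 5.08 to 10.6), which overlap, and coding models 86.5% (84.0 to 88.6) and 78.2% (73.6 to 82.2), which do not. *Isyna1* gave 358 of the 842 control reads, and without it the coding shares were 83.3% (79.7 to 86.3) and 76.4% (71.1 to 81.0), which overlap. The pooled shares also depend on how many reads each gene gave. *Cdipt*, with 84.6% and 87.2% of its reads on nonsense-mediated decay models, gave 52 of the 842 and 47 of the 353. Within genes the coding share was higher in the knockdown library in *Impa2*, *Pip5k1c* and *Inppl1*, equal in *Impa1* and lower in the others.

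The rest of the pathway, without the 9 genes, was called about as often as all genes were. The 9 genes were chosen with this comparison known, and taking them out lowers the list's shares. These shares therefore do not describe the pathway as a whole. In a list of 105 other genes of inositol and phosphoinositide metabolism, 79 were tested for splicing efficiency, with 6 called lower (7.59%, beside 6.98% of all genes) and 0 higher (beside 0.128%). Of 81 tested for spliced reads, 7 were called with fewer (8.64%, beside 6.76%) and 0 with more (beside 1.96%). Their median log2 odds ratio was 0.12 and their median log2 fold change 0.03, beside 0.09 and 0.01 over all genes. Of 829 tested introns in these genes 16 were called lower (1.93%, beside 1.71%), in 5 genes.

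By role, 4 of the 8 tested genes for inositol trisphosphate receptors and diacylglycerol kinases were called lower in splicing efficiency, beside 6.98% of all genes. This group was singled out after its count was seen, in a list that as a whole lay near that share. *Dgkz*, a kinase that removes the diacylglycerol made by phospholipase C, had 8 of 26 introns called and a splicing efficiency of 0.869 and 0.804 in controls against 0.717 and 0.613 in the knockdown (log2 odds ratio 1.38, standard error 0.223, edgeR adjusted p = 8.55e-08). Its spliced reads fell from 240 and 258 CPM to 199 and 169 (log2 fold change −0.46, edgeR adjusted p = 0.0012). *Dgka*, of the same family, went from 0.894 and 0.847 to 0.740 and 0.714 (log2 odds ratio 1.36, edgeR adjusted p = 2.95e-06), and from 106 and 97.8 CPM to 51.5 and 59.6. *Itpr3*, a calcium channel opened by inositol trisphosphate, went from 0.965 and 0.952 to 0.924 and 0.915 (log2 odds ratio 1.03, edgeR adjusted p = 0.000242) and from 342 and 334 CPM to 234 and 205. The fourth, *Dgkq*, had a log2 odds ratio of 0.89 (edgeR adjusted p = 0.0398), with low efficiency also in controls (0.467 and 0.341 against 0.284 and 0.251).

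In the other groups single genes were called. *Inpp5k*, an inositol polyphosphate 5-phosphatase, had the largest log2 odds ratio of the list's called genes, 2.03 (standard error 0.400, edgeR adjusted p = 2.33e-05), with 0.839 and 0.860 in controls against 0.611 and 0.546 in the knockdown. *Pik3r2*, a regulatory subunit of phosphoinositide 3-kinase, went from 0.876 and 0.868 to 0.804 and 0.734 (log2 odds ratio 1.02, edgeR adjusted p = 0.00231). Both also had fewer spliced reads, with log2 fold changes of −0.86 and −0.44. *Fam126b*, a partner of PI4KA in its membrane complex, and *Itpka*, a kinase of inositol trisphosphate, were called in spliced reads and not in splicing efficiency, with log2 fold changes of −0.71 and −0.97 (edgeR adjusted p = 0.0474 and 0.0435). Without control replicate 1 the list's counts were 1 lower in splicing efficiency and 3 with fewer spliced reads, while the latter was 2 without control replicate 2 and 17, counted in both directions, without knockdown replicate 1.

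Near the members in the pathway, 0 of 3 other tested genes of inositol synthesis, salvage and uptake and 0 of 8 of phosphatidylinositol synthesis and transfer were called in either measure. With 6.98% and 6.76% of all genes called in these directions, counts of 0 among so few genes do not set these groups apart. *Cds2*, which makes the CDP-diacylglycerol that CDIPT uses, had 373 and 324 CPM in controls against 380 and 412 in the knockdown (log2 fold change 0.16, edgeR adjusted p = 0.279). *Bpnt1*, a phosphatase related to the inositol monophosphatases, had 30.7 and 24.2 CPM in controls against 25.6 and 17.2 in the knockdown (log2 fold change −0.38, edgeR adjusted p = 0.231). The inositol transporter genes *Slc5a3* and *Slc2a13* were not tested in total RNA, and *Slc5a3* had 18 and 7 long reads. Of the other phospholipase C genes 4 were tested, and 0 were called.

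The genes whose pattern over the 4 total RNA libraries was most like that of *Isyna1* came from other pathways. Likeness was the root mean square distance over 8 values per gene, its spliced reads and its log odds of an unsplit read in each library relative to its control mean, among 9207 genes. The nearest 5 were *Rogdi* (0.0757), *Apeh* (0.0941), *Irf3* (0.118), *Vars* (0.122) and *Acads* (0.125). *Rogdi* went from 53.9 and 52.0 CPM to 25.8 and 24.3 and from a splicing efficiency of 0.959 and 0.959 to 0.844 and 0.833. *Vars*, a valyl-tRNA synthetase, is closer to *Isyna1* in level, with 566 and 539 CPM against 269 and 267, and 0.983 and 0.979 against 0.933 and 0.940. By size of the fall in spliced reads *Plcb3* was 75th and *Isyna1* 76th of 9474 genes, and by log2 odds ratio *Isyna1* was 98th and *Plcb3* 254th of 9370.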

How the data were processed

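Split and unsplit read counts at the 5′ and 3′ junction of each intron, and a splicing efficiency given as a fraction, were made by the authors with SPLICE-q, per the labels. In each table the fraction equalled split reads over all reads of both junctions, and every listed intron had at least 10 reads at each junction. The deposited long-read files hold read counts per transcript. The submitters' processing notes name GRCm39, SAMtools and minimap2. The short-read aligner, annotation, strand setting and SPLICE-q settings are not given in the sources used here, so reads of overlapping genes cannot be told apart. The authors' fraction was used as deposited for introns, and recomputed from summed counts per gene.

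Introns listed in all 4 libraries with at least 10 split and 10 unsplit reads were fitted with edgeR 4.0.16 (R 4.3.3): each library gave a split and an unsplit column, and the model held library effects, the effect of being unsplit and, as the tested term, its interaction with knockdown. Summing both junctions counts a read that spans both of them more than once. Split reads at 5′ junctions, summed per gene over introns of that gene alone, were fitted after TMM scaling and filterByExpr. Both are quasi-likelihood tests with Benjamini-Hochberg adjustment over all features and a threshold of 0.05. CPM are counts scaled to a library's total of split reads at 5′ junctions, for unsplit reads too. Long-read CPM used all reads, and shares have 95% Wilson intervals. The scripts were tested on simulated data. Exon sequences, intron numbers and transcript types came from GENCODE M21 (GRCm38) by transcript identifier, without its coordinates.

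Alternatives were each junction alone, DESeq2 1.42.0, separate scaling of unsplit reads, other read minimums, the best covered intron, a pseudocount of 5, long reads without the 100 most abundant transcripts or with protein-coding transcripts only, a replicate block and leaving out each library. Nothing states that the samples were separate cultures, so p-values measure the spread between these samples, which may be technical. The replicates of a group differed by more than counting noise (chi-square per degree of freedom 2.90 in controls and 9.19 in the knockdown).

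The 9 genes, the pathway list and the marker lists were chosen with earlier results of these data known. Named were the 9 genes, up to 4 called introns of each with the largest fall, the intron with the largest change and at least 50 reads in every library where none was called, up to 8 called genes of the pathway list, and the 5 genes most like *Isyna1*. Of the 105 pathway genes, 102 matched a symbol.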

Additional observations from a re-analysis of the deposited data

How the results depend on the processing

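The calls on the 9 genes kept their direction under every alternative, and their number did not keep its size. From 18 called introns, the 5′ junction alone gave 4, the 3′ junction alone 3 and DESeq2 4, and leaving out 1 library gave 4 to 14. Over all introns, 1112 calls became 232, 322 and 294 with these settings and 171 to 1427 with 1 library left out. Genes called in splicing efficiency went from 666 to between 180 and 702 with 1 library left out, those of the 9 from 6 to between 3 and 5, and those of the pathway list from 6 to between 1 and 6. Genes called in spliced reads went from 826 to 290 with the best covered intron alone and to between 381 and 2193 with 1 library left out. Of the 9, 6 became 3 with the best covered intron alone, and of the pathway list 7 became 3 with DESeq2, 2 with the best covered intron alone and 2 to 17 with 1 library left out. The cause was not tested, except that single junctions hold fewer reads. *Impa2* changed sign in 3 settings. Its log2 odds ratio per gene was between −0.44 and 0.28 with 1 library left out. Its log2 fold change of spliced reads was 0.038 with the best covered intron alone, and between −0.22 and 0.088 with 1 library left out. Of the values of the named called introns in these settings, 109 kept the call and 75 lost it. Over genes and introns, same-numbered control and knockdown libraries did not deviate together (correlations of 0.036 for spliced reads and 0.011 for log odds). Mean splicing efficiency over all tested introns was lower in replicate 2 of both groups (0.902 and 0.891 in controls, 0.891 and 0.873 in the knockdown). With 2 libraries per group these values cannot settle whether same-numbered samples were paired or shared a batch. A replicate block gave 19 called introns in the 9 genes and 1626 over all introns, and 1018 genes in place of 666 for splicing efficiency. Long-read ratios stayed within their intervals with a pseudocount of 5, without the 100 most abundant transcripts and with protein-coding transcripts only, but the last moved *Pi4ka* from −0.63 to −1.08, *Plcb3* from −0.52 to −0.84 and *Cdipt* from 0.57 to 0.33. At the depth of the long reads, a change in *Plcg1* (10 and 7 reads) could not be seen.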
